A study of Mus musculus with 45 samples.

Results

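The genes described here are 10 members of the fibroblast growth factor (FGF) pathway, of 53491 genes listed for primary cells of the mouse embryonic cortex. They were chosen by name. Fgfr1, Fgfr2 and Fgfr3 encode FGF receptors, Spry1, Spry2 and Spry4 encode Sprouty proteins that restrain receptor signalling, Dusp4 and Dusp6 encode phosphatases that inactivate MAP kinases, and Etv4 and Etv5 encode ETS transcription factors switched on by the pathway. The question was how the levels of these RNAs differed between stages, how fast each lost its label, and whether the RNAs of the feedback inhibitors turned over faster than those of the receptors.

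RNA was measured by SLAM-seq, in which cells take up 4-thiouridine (4sU), a uridine analogue that is read as C after alkylation, so that T-to-C conversions mark RNA made during labelling. Cells were wild type (WT) and came from cortex at E11.5, E14.5 or E16.5. A biological replicate was a pool of 7 embryos at E11.5 and of 2 embryos at E14.5 and E16.5, and there were 3 pools per stage (A, B and C), each spread over 5 wells. RNA was taken at 0, 2, 4, 8 or 12 h of chase, which gave 45 libraries in 15 groups of 3. All groups shared medium with 10 ng/mL of mouse bFGF, an FGF ligand, 20 h with 100 uM 4sU and, from 0 h, 5 mM uridine as the chase. Fresh medium with 4sU had replaced the old 12, 8, 4 and 1 h before the chase began, so 0 h is a state soon after renewed bFGF and no group was grown without it.

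FGFs bind receptor tyrosine kinases, which signal through FRS2, RAS, RAF and MEK to the kinases ERK1 and ERK2. ERK activity switches on ETS factors such as Etv4 and Etv5 together with the inhibitors that close the loop, Sprouty proteins upstream of RAS and dual-specificity phosphatases on the MAP kinases themselves. In the embryonic cortex FGF signalling is known for its part in patterning the forebrain and in keeping radial glia, the neural stem cells, in a proliferative state.

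Libraries held 228.7 to 629.1 M covered T positions (median 473.2 M), or 15.9 to 43.9 M recovered reads. No 2 libraries of the same group were duplicates, and pairs from different groups were not checked. Cortical identity genes were present at every stage, with Emx1 at 66.9 to 83.8 reads per 1e6 reads (cpm) in E11.5, 19.6 to 28.3 in E14.5 and 21.0 to 28.2 in E16.5 libraries. The makeup of the pools moved with stage. The summed level of 11 radial glia markers at 0 h was 10018 to 10566 cpm in E11.5 libraries, 3814 to 4411 in E14.5 and 1545 to 1703 in E16.5 libraries, while 10 neuron markers summed to means of 3388, 7117 and 10740 cpm. E11.5 libraries also carried RNA of other cells, with means of 2535 cpm over 7 erythroid markers (51.8 and 40.9 cpm later), 531 cpm over 8 meningeal fibroblast markers (13.5 and 16.9 cpm later) and 110 cpm over 6 mural markers (26.7 and 29.4 cpm later). Endothelial markers (7 genes) went from 5.54 to 84.0 and 48.2 cpm, 9 glial markers from 142 to 380 and 362 cpm, and 5 intermediate progenitor markers from 279 to 309 and 178 cpm, and microglia (7 genes) stayed between 8.32 and 11.3 cpm. None of these lists was at 0 as a whole. In such bulk samples fewer cells of a type and less RNA per cell cannot be told apart, and the part of cell makeup in the stage differences below was not tested.

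All members are protein-coding genes. On GRCm38 (mm10) with GENCODE release 21, Fgfr1 lies on chr8:25513654-25575718 (plus strand), Fgfr2 on chr7:130162451-133123350 (minus), Fgfr3 on chr5:33721674-33737068 (plus), Spry1 on chr3:37639947-37644598 (plus), Spry2 on chr14:105891947-105896819 (minus), Spry4 on chr18:38586247-38601415 (minus), Dusp4 on chr8:34807297-34819894 (plus), Dusp6 on chr10:99263231-99267489 (plus), Etv4 on chr11:101769742-101785371 (minus) and Etv5 on chr16:22381309-22439719 (minus).

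The Fgfr2 model is unusual. It runs far beyond its principal transcript (130163709-130266191) and shares exon sequence on the same strand with Ctbp2, so reads of these 2 genes may be split and Fgfr2 values are uncertain to that extent. Fgfr1, Fgfr3 and Spry1 overlap antisense genes, which the stranded library kit should keep apart where counting used strand.

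The 3′ UTRs of the members were searched for the AU-rich element TATTTAT and the Pumilio-type motif TGTANATA on the transcribed strand, since motifs of both kinds are known from short-lived mRNAs. TATTTAT had 2 matches each in Spry1 and Spry2, 4 in Spry4, 1 each in Fgfr3 and Etv5, and none in the 3′ UTRs of Fgfr1, Fgfr2, Dusp4, Dusp6 or Etv4. Of all 20188 annotated 3′ UTRs, 26.4% held at least 1. Among 3′ UTRs within 25% of the same length, 6.89% held as many as Spry1 (1047 bases), 4.56% as many as Spry2 (856 bases) and 3.61% as many as Spry4 (3559 bases). Other forms of the element did not set these genes apart. The shorter core ATTTA had 2, 2 and 7 matches in Spry1, Spry2 and Spry4. At like length 50.2%, 41.1% and 44.1% of 3′ UTRs held at least as many. The longer TTATTTATT had no match in any member. TGTANATA had 2 matches each in Dusp6, Fgfr1 and Spry4, 1 each in Fgfr2, Spry2, Etv4 and Etv5, and none in Fgfr3, Spry1 or Dusp4, against 22.4% of all 3′ UTRs with at least 1. At like length 4.81% held as many as Dusp6 and 8.14% as many as Fgfr1. TATTTAT and TGTANATA share no bases at the sites shown. A match describes the sequence and is not a measured site. The 30-base windows below show the sites of the short-lived Spry1, Spry2 and Dusp6 RNAs beside those of the longer-lived Fgfr1, Fgfr3 and Etv5, with the motif in capitals.
Spry1, chr3:37644409-37644438 (plus): attgtaaagaaTATTTATtatgcgaatctc
Spry1, chr3:37644441-37644470 (plus): ttattttatgaTATTTATtgcaaaagactg
Spry2, chr14:105892091-105892120 (minus): agtgtaaagaaTATTTATttgaagttttat
Spry2, chr14:105892052-105892081 (minus): aaaaaaaagaaTATTTATtttaagaggcat
Fgfr3, chr5:33736306-33736335 (plus): atttgtaaagcTATTTATcaacccccagag
Etv5, chr16:22381761-22381790 (minus): tttcataagcaTATTTATagctttctaatc
Dusp6, chr10:99266789-99266818 (plus): tatctgattatTGTAAATAtttgatcttca
Dusp6, chr10:99267108-99267137 (plus): tgccttaccttTGTAAATAtttggcttaca
Fgfr1, chr8:25574490-25574519 (plus): acttggggctcTGTACATAgctatgaagaa
Fgfr1, chr8:25575127-25575156 (plus): tattcctctccTGTAAATAtcctccccttc

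Levels at 0 h were compared first. Most members fell with stage, the receptors Fgfr2 and Fgfr3 and the inhibitor Spry1 by the most, Fgfr1 showed no difference past the test, and Dusp6 stood apart by rising to E14.5. From E11.5 to E14.5, 1 member rose and 6 fell at an adjusted p under 0.05 in edgeR's quasi-likelihood test, where 25.1% of the 18408 genes tested rose and 23.5% fell. From E14.5 to E16.5, none rose and 7 fell (24.1% and 25.4% of all genes). Between E11.5 and E16.5, 1 rose and 8 fell (31.4% and 33.1%). Changes over 2-fold were fewer, at 3, 1 and 5 members against 16.1%, 13.1% and 29.3% of all genes for the same comparisons. The median log2 change over the 10 members was -0.70, -0.38 and -0.80, against medians of -0.01, 0.00 and -0.04 over all genes tested. The comparisons share libraries, so these are not independent of each other. Some of the genes tested had single reads in a library, so the shares of all genes cover genes with far fewer reads than the members. The same count filter was used for the chase comparisons below.

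**Figure D1:**
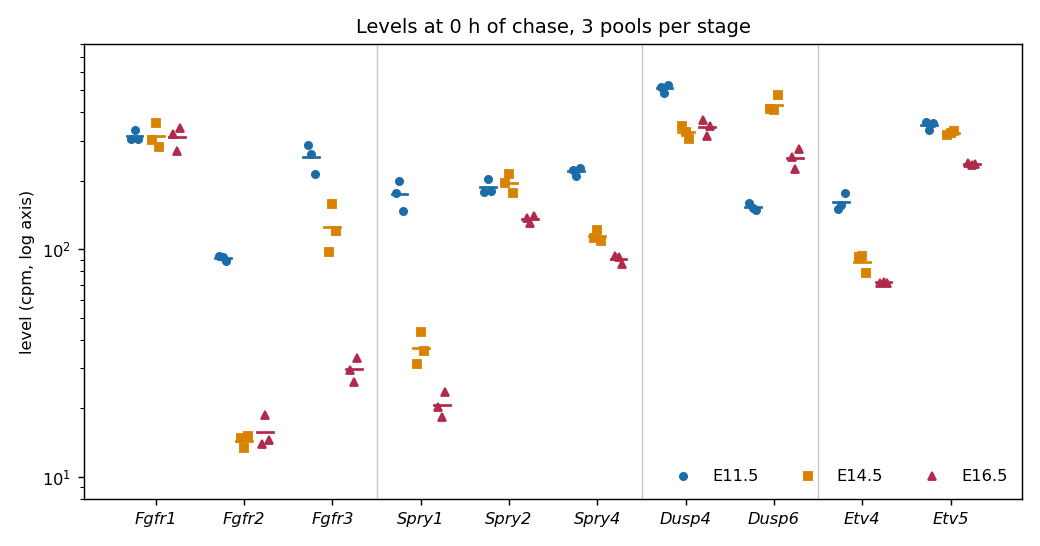
Levels of the 10 members at 0 h of chase in cpm on a log axis, with 1 point per pool and a line at the mean of the 3 pools of each stage. Fgfr1 points of the 3 stages overlap, Fgfr2, Fgfr3 and Spry1 lie far lower at E16.5 than at E11.5, and Dusp6 is highest at E14.5.

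The receptors behaved differently from one another. Fgfr1, the receptor with the highest cpm, was at 306, 335 and 306 cpm in E11.5 pools A, B and C, at 304, 358 and 283 cpm at E14.5 and at 320, 270 and 343 cpm at E16.5. These ranges overlap, and its log2 changes of 0.07 (adjusted p = 0.575), -0.03 (0.823) and 0.04 (0.722) did not pass the test. Fgfr2 was at 94.0, 92.2 and 88.7 cpm at E11.5, at 14.8, 13.4 and 15.1 cpm at E14.5 and ran from 13.9 to 18.7 cpm in the E16.5 pools. It fell between the first 2 stages, by 2.61 on the log2 scale (SE 0.115, adjusted p = 1.93e-09), and its E14.5 and E16.5 pools overlap, with a log2 difference of 0.09 (adjusted p = 0.51). Fgfr3 was at 289, 263 and 214 cpm at E11.5, at 97.5, 158 and 121 cpm at E14.5 and at 29.6, 26.1 and 33.2 cpm at E16.5. It therefore fell at both steps without overlap of the pools, by 0.96 (SE 0.155, adjusted p = 2.06e-04) and by 2.08 (SE 0.160, adjusted p = 5.13e-07).

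Of the Sprouty genes, Spry1 changed most. It was at 178, 199 and 148 cpm in the E11.5 pools, at 31.3, 43.2 and 35.9 cpm at E14.5 and at 20.2, 18.2 and 23.5 cpm at E16.5, a fall of 2.17 (SE 0.135, adjusted p = 4.01e-08) followed by a fall of 0.87 (adjusted p = 1.27e-04) on the log2 scale. Spry4 fell from 224, 211 and 227 cpm to 113, 122 and 109 cpm and then to 93.4, 92.8 and 86.7 cpm, with log2 changes of -0.90 (adjusted p = 1.77e-07) and -0.31 (adjusted p = 0.00149). Spry2 held its level for longer. It was at 178, 205 and 180 cpm at E11.5 and at 196, 215 and 177 cpm at E14.5 (log2 change 0.12, adjusted p = 0.257), and fell to 138, 130 and 140 cpm at E16.5 (log2 change -0.52, adjusted p = 1.48e-04).

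The 2 phosphatase genes moved in opposite directions from E11.5 to E14.5. Dusp6, whose product acts on ERK in the cytoplasm, rose from 160, 152 and 150 cpm at E11.5 to 412, 409 and 479 cpm at E14.5, a log2 change of 1.54 (SE 0.081, adjusted p = 8.57e-09), and fell to 255, 225 and 276 cpm at E16.5 (log2 change -0.78, adjusted p = 5.19e-06). Its lowest E16.5 pool was above its highest E11.5 pool (log2 change 0.77, adjusted p = 2.04e-06). Dusp4, a nuclear phosphatase, fell from 517, 487 and 528 cpm at E11.5 to 348, 328 and 307 cpm at E14.5 (log2 change -0.57, adjusted p = 2.52e-05). At E16.5 Dusp4 was at 372, 315 and 350 cpm, which overlaps the E14.5 pools (log2 change 0.07, adjusted p = 0.418).

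Both ETS genes were lower at E16.5 than at E11.5. Etv4 was at 151, 157 and 176 cpm at E11.5, at 92.3, 93.6 and 78.8 cpm at E14.5 and at 71.5, 72.1 and 71.3 cpm at E16.5, with log2 changes of -0.82 (adjusted p = 3.22e-06) and -0.27 (adjusted p = 0.0135). Etv5 was at 363, 335 and 358 cpm, then at 318, 326 and 331 cpm, then at 240, 236 and 237 cpm. Its second step passed the test (log2 change -0.44, adjusted p = 2.46e-05). The first did not with trimmed-mean (TMM) scaling (-0.07, adjusted p = 0.299) but did when libraries were scaled by their totals (-0.14, adjusted p = 0.042).

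Levels per kb of exon allow the members to be ordered within a stage. At E11.5 Dusp4 led with 186 cpm per kb, ahead of Spry2 (89.9) and Etv5 (85.9), whose pools overlapped. Spry1 (60.2), Etv4 (52.0), Dusp6 (49.1) and Spry4 (46.4) followed, each overlapping its neighbour. Fgfr3 (35.7) and Fgfr1 (31.9) overlapped too, and Fgfr2 was last with 8.87 cpm per kb. At E14.5 Dusp6 (138 cpm per kb) stood above Dusp4 (120), Spry2 (94.1) and Etv5 (79.2), with no overlap between neighbours, and Fgfr1 (31.9), Etv4 (28.4) and Spry4 (24.1) formed the next overlapping group. Fgfr3 (17.5) and Spry1 (12.7) overlapped below them, and Fgfr2 had 1.39 cpm per kb. At E16.5 no neighbours overlapped, and the order was Dusp4 (126), Dusp6 (80.5), Spry2 (65.1), Etv5 (57.9), Fgfr1 (31.5), Etv4 (23.1), Spry4 (19.1), Spry1 (7.11), Fgfr3 (4.14) and Fgfr2 (1.52). By the sum of levels per kb, the 5 inhibitors exceeded the 3 receptors by a ratio of 5.67 ± 0.401 (SD, n = 3 pools), then 7.75 ± 0.995, then 8.05 ± 0.417 from the earliest to the latest stage, with receptor sums of 76.5 ± 6.12, 50.8 ± 7.65 and 37.2 ± 4.04 cpm per kb. These ratios are a description and were not tested.

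Labelled RNA of the feedback inhibitors disappeared early in the chase. After 2 h at E11.5 the conversion rate of Spry1, Spry2, Spry4 and Dusp6 stood at 38.7%, 38.2%, 40.9% and 38.1% of its 0 h value. The median over transcripts with a measured half-life was 84.2%. At E14.5 Spry1, Spry2, Spry4 and Dusp6 stood at 41.4%, 40.9%, 41.9% and 44.3% (median 88.0%), and at E16.5 at 33.6%, 32.7%, 32.6% and 26.8% (median 77.6%). The receptors kept more. Fgfr1 stood at 82.7%, 95.0% and 80.8% at the 3 stages, Fgfr2 at 64.6%, 61.8% and 49.5%, and Fgfr3 at 67.4%, 76.1% and 69.5%. Etv4 had lost little by 2 h, at 99.5%, 106% and 94.7%, and Etv5 lay between, at 73.2%, 80.0% and 60.6%. By 12 h the median over transcripts with a measured half-life was 21.5%, 21.0% and 11.4% of the 0 h rate. No unlabelled library was used here to calibrate this residue.

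**Figure D2:**
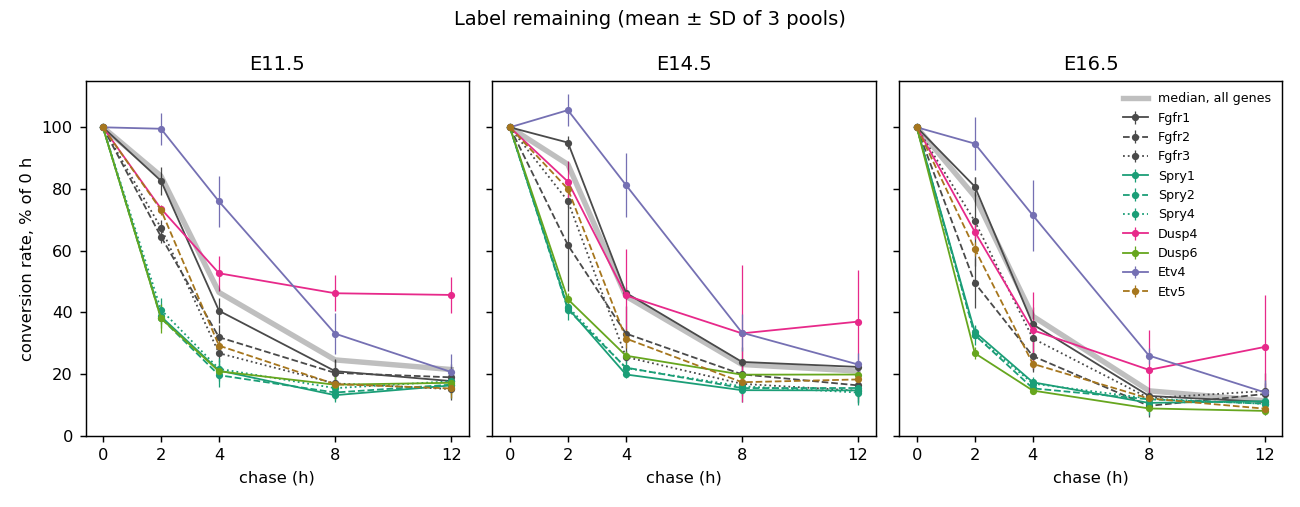
Conversion rate as a percentage of the 0 h rate of the same pool against hours of chase, mean ± SD of 3 pools, for the 10 members. Grey is the median over transcripts with a measured half-life (marked as all genes in the key). Spry1, Spry2, Spry4 and Dusp6 run together below all other members at 2 h, Etv4 runs above them, and Dusp4 levels off at E11.5.

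Half-lives, from a single exponential fitted to these rates, put 4 of the 5 inhibitors among the shortest-lived transcripts measured. Spry1 had half-lives of 1.66, 1.89 and 1.63 h in the E11.5 pools, 1.69, 1.86 and 1.79 h in those of E14.5 and 1.40, 1.44 and 1.48 h in those of E16.5. Spry2 had 1.79, 1.84 and 1.44 h, then 1.81, 1.80 and 1.94 h, then 1.39, 1.33 and 1.42 h. Spry4 had 1.99, 2.02 and 1.56 h, then 1.77, 1.74 and 2.13 h, then 1.46, 1.32 and 1.44 h. The 3 Sprouty RNAs overlapped one another at each stage, and all lay within the lowest 1% of transcripts, with the highest percentile 0.759 (Spry1 at E16.5). Dusp6 had 1.63, 2.04 and 1.58 h in the E11.5 pools, then 2.15, 2.10 and 2.37 h, then 1.21, 1.20 and 1.13 h, or percentiles of 0.294, 2.07 and 0.067 among 10858, 10686 and 11850 transcripts. The median transcript had 4.43, 4.60 and 3.48 h.

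The receptors turned over more slowly. Fgfr1 had 3.97 ± 0.312 h at E11.5 (SD, n = 3 pools; 3.93, 4.29 and 3.67 h), 4.79 ± 0.410 h at E14.5 (4.67, 4.46 and 5.25 h) and 3.34 ± 0.078 h at E16.5 (3.29, 3.29 and 3.43 h), close to the stage medians. Fgfr2 had 3.37, 3.26 and 2.81 h, then 3.92, 2.30 and 2.86 h, then 1.75, 2.35 and 2.29 h, and Fgfr3 had 2.85, 3.05 and 2.68 h, then 2.97, 3.02 and 3.13 h, then 2.36, 3.84 and 2.63 h. Among the receptors the E14.5 values of Fgfr2 and the E16.5 values of Fgfr3 spread most, with SDs of 0.820 and 0.787 h. Both genes were at low levels there (means of 14.4 and 29.7 cpm), as was Spry1 at E16.5 (20.7 cpm), whose pools lay closer together. Whether level bears on the spread was not tested. The ETS pair differed from each other. Etv5 had means of 3.10, 3.44 and 2.36 h, below the stage medians, and Etv4 had 6.61 ± 1.10, 7.17 ± 1.12 and 5.55 ± 0.902 h, at percentiles 86.4, 88.5 and 86.4.

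**Figure D3:**
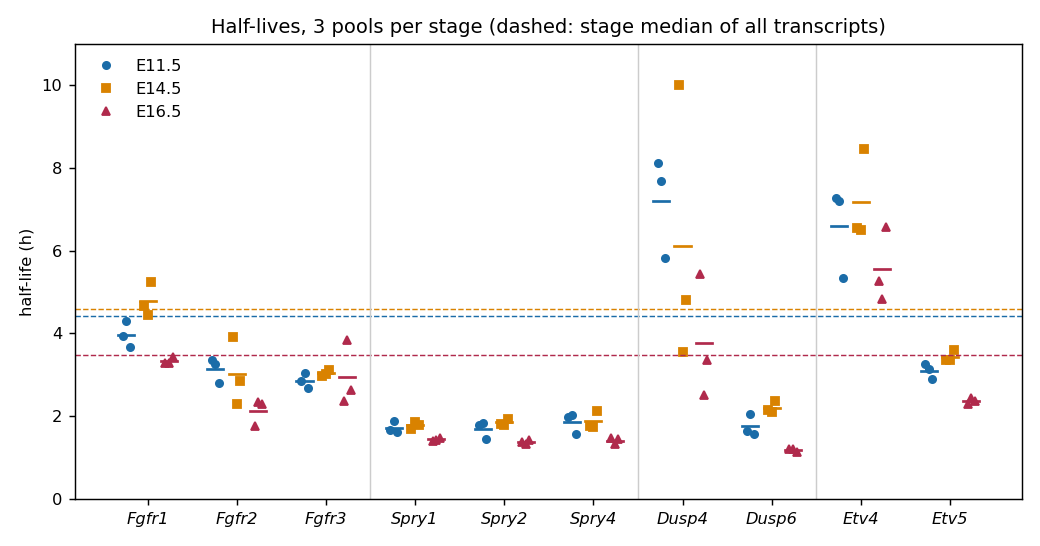
Half-lives in hours of the 10 members, with 1 point per pool, a line at the mean of 3 pools and a dashed line at each stage's median over all transcripts. The Sprouty genes and Dusp6 cluster between 1.13 and 2.37 h, Etv4 lies above the dashed lines, and Dusp4 has the widest spread.

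Set against each other, the inhibitors' median half-life was shorter than that of the receptors in each of the 9 pools. The difference was -1.35 ± 0.197 h at E11.5 (SD, n = 3; -1.57, -1.24 and -1.23 h), -1.42 ± 0.603 h at E14.5 (-2.11, -1.16 and -0.994 h) and -1.37 ± 0.523 h at E16.5 (-0.968, -1.96 and -1.19 h). At each stage 4 of 5 inhibitors lay below the lowest receptor, and the exception was Dusp4. The sign rested on the early part of the curve. With the 0 h point left out and a free intercept the difference was 5.78, 2.85 and 2.50 h, on the 10, 13 and 13 of 15 inhibitor values and the 9, 9 and 8 of 9 receptor values that passed the filters. That fit starts at 2 h, when Spry1, Spry2, Spry4 and Dusp6, but not Dusp4, had lost most of their label. Later rates of these 4 lay near the residue, as did those of Fgfr3 (0.193%, 0.196% and 0.167% at 12 h in the E11.5 pools). Whether this bears on the change of sign was not tested. With a free plateau in the fit, chosen after seeing the data, it was -1.15, -1.48 and -1.45 h. With the mean in place of the median it was -0.475, -0.852 and -0.967 h, a summary that gives the long Dusp4 values full weight. These are 5 genes against 3, chosen with earlier results known, and no test was made.

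No member passed the test for a change of relative half-life between stages. After z-scoring within each pool, limma's moderated F-test called 0 of 10 members, none at an unadjusted p under 0.05, where 3.15% of 9505 transcripts were called. The lowest p among the members was that of Fgfr1 (unadjusted p = 0.0513, adjusted p = 0.234). Unscaled half-lives in hours gave 2 calls (Fgfr1 and Etv5), where 24.2% of transcripts were called, and log2 half-lives centred on each pool's median gave 1 (Dusp6), where 4.4% were. Beside the shorter E16.5 values listed above, the median over all transcripts was also shorter at that stage.

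Dusp4 did not follow a single exponential well. Half-lives of 8.12, 7.68 and 5.83 h in the E11.5 pools, of 10.0, 3.56 and 4.80 h in the E14.5 pools and of 5.45, 2.51 and 3.37 h in the E16.5 pools came from these fits, and R2 at E11.5 was only 0.687 to 0.823. The conversion rate fell early, to 73.6%, 82.4% and 66.1% of the 0 h rate by 2 h, and then in some pools stopped falling. In the E11.5 pools it went from 1.52%, 1.33% and 1.76% of Ts at 0 h to 0.759%, 0.640% and 0.689% at 12 h, above 96.5%, 94.8% and 95.0% of genes, whose median was 0.235%. Pools differed at the later stages. At E14.5 the 12 h rate was 0.874%, 0.201% and 0.449%, and at E16.5 it was 0.966%, 0.159% and 0.945%, so pool B lay below the stage medians of 0.236% and 0.209% while pools A and C lay above. In pool C the rate was higher at 12 h than at 8 h at both later stages, where the 8 h values were 0.191% at E14.5, below that library's median of 0.285%, and 0.399% at E16.5. A fit with a free plateau gave Dusp4 mean half-lives of 1.84, 2.72 and 1.90 h, with plateaus of 49.0%, 46.1% and 36.0% of the 0 h rate in the E11.5 pools, 47.3%, 12.1% and 26.7% in those of E14.5 and 35.0%, 4.36% and 25.8% in those of E16.5. Its single-exponential half-life is thus a poor summary of the curve. Every other member had a mean 12 h rate between 0.156% and 0.246%, and Dusp6, the other phosphatase, showed no such residue.

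**Figure D4:**
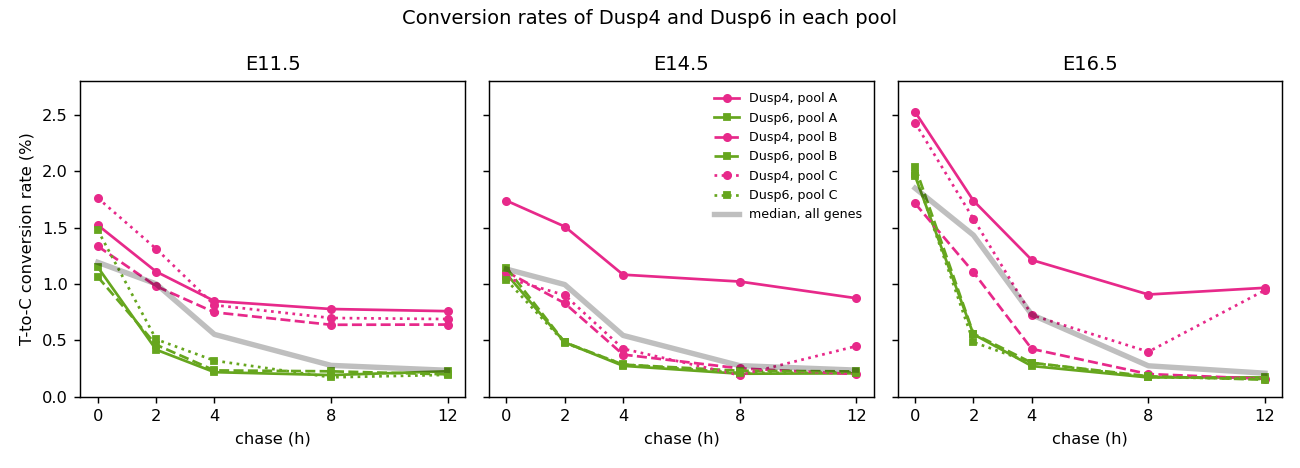
T-to-C conversion rate in percent of covered Ts against hours of chase in each pool, for Dusp4 and Dusp6, with the median of all genes in grey. Dusp4 stays near 0.7% in the E11.5 pools and splits by pool at E14.5 and E16.5, while the Dusp6 curves of all pools fall to about the grey line or below it.

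The label held at 0 h, after 20 h with 4sU, was compared as the log2 conversion rate minus the library's median. limma's F-test called 6 of 10 members (17.3% of 12522 genes were called). These were Fgfr3 (adjusted p = 0.0022), Spry1 (0.00208), Spry4 (0.0178), Etv4 (0.0198), Fgfr1 (0.0331) and Spry2 (0.0453). Mean rates of Fgfr3 were 1.25%, 1.22% and 1.16% at the 3 stages and those of Spry1 1.30%, 1.28% and 1.40%, while the median over all genes was 1.19%, 1.13% and 1.85%. Relative to the library median, E16.5 was lower than E14.5 by 0.79 for Fgfr3, 0.58 for Spry1, 0.34 for Spry4, 0.32 for Etv4 and 0.24 for Spry2 on the log2 scale. Fgfr1 had its lowest relative rate at E14.5, 0.22 below E11.5, a difference that did not pass the test on its own (adjusted p = 0.138). At least 5199 covered Ts stood behind each rate at 0 h, the lowest being Fgfr2 at E16.5. The calls depended on the E16.5 pools. Without E16.5 pool A 3 were called (Fgfr2, Fgfr3 and Spry1), without pool B 2 (Fgfr3 and Spry1) and without pool C 3 (Fgfr3, Spry1 and Spry4).

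Total levels over the chase, with label ignored, gave most calls among the members at E11.5. The marker sums moved over the same 12 h. The mean sum of 9 glial markers went from 142 to 241 cpm at E11.5, from 380 to 863 cpm at E14.5 and from 362 to 661 cpm at E16.5. At E11.5 the radial glia sum went from 10280 to 8419 cpm and the erythroid sum from 2535 to 1613 cpm, while the neuron sum went from 3388 to 3514 cpm. Their part in the changes below was not tested. By 12 h at E11.5, 4 members had fallen (Fgfr2, Fgfr3, Spry1 and Dusp6) and 2 had risen (Dusp4 and Etv5), where 9.8% of 16559 genes fell and 17.4% rose. At E14.5, 2 fell (Fgfr3 and Dusp4) and none rose, against 10.4% and 11.2% of all genes. At E16.5, 3 fell (Spry2, Dusp4 and Etv5) and none rose, against 8.34% and 12.5%. The wells of one pool are paired, and with pool as a block 7, 5 and 6 members were called at the 3 stages, where 37.9%, 34.1% and 33.2% of all genes were called in that fit. The block added Spry2 at E11.5 (-0.17), Fgfr1, Dusp6 and Etv5 at E14.5 (-0.24, -0.15 and -0.13), and Fgfr1, Spry4 and Dusp6 at E16.5 (-0.24, -0.15 and -0.21).

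**Figure D5:**
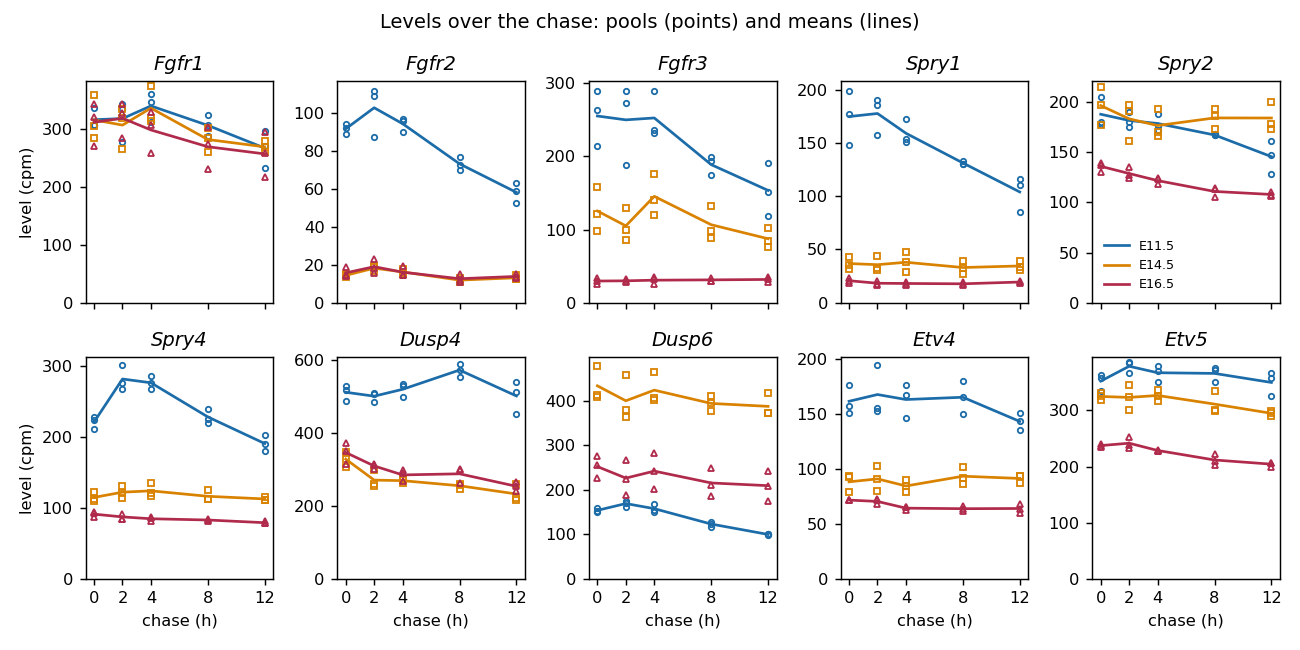
Levels of the 10 members in cpm against hours of chase, with 1 point per pool and lines through the means of 3 pools at each stage. Fgfr2, Fgfr3, Spry1 and Dusp6 decline at E11.5, Spry4 is raised at 2 and 4 h at E11.5, and Dusp4 declines at E14.5 and E16.5 from similar starting levels.

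At E11.5 Fgfr2 went from 94.0, 92.2 and 88.7 cpm at 0 h to 63.2, 58.6 and 52.7 cpm at 12 h, with no overlap (log2 change -0.45, SE 0.122, adjusted p = 0.00493). Fgfr3 went to 191, 151 and 118 cpm (log2 change -0.53, SE 0.175, adjusted p = 0.0215), and Spry1 to 116, 111 and 85.0 cpm (-0.53, SE 0.142, adjusted p = 0.0045). Dusp6 ended at 98.3, 99.9 and 101 cpm, below each of its 0 h values (-0.41, SE 0.116, adjusted p = 0.00793). Spry1 and Dusp6 had already passed the test at 8 h, with log2 changes of -0.41 (adjusted p = 0.0401) and -0.32 (adjusted p = 0.0474), as the 2 members that fell by then, where 6.5% of genes fell. With pool as a block 6 members were called at 8 h at E11.5 (adding Fgfr2, Fgfr3 and Spry2), where 30.2% of genes were. In the fit without the block, only Fgfr2 was called at 12 h without pool B at E11.5, and Fgfr2, Spry1 and Etv5 without pool A.

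Spry4 ran the other way at first. From 224, 211 and 227 cpm at 0 h at E11.5 it was at 275, 267 and 301 cpm at 2 h and 275, 285 and 267 cpm at 4 h, all above the 0 h pools. Without the block it was the 1 member called higher at 2 h (log2 change 0.38, adjusted p = 1.68e-04, where 1.99% of genes rose) and at 4 h (0.33, adjusted p = 4.85e-04, where 7.98% rose). With pool as a block Dusp6 was also called higher at 2 h (0.16, adjusted p = 0.0209), where 4.99% of genes rose. By 12 h Spry4 was at 190, 202 and 179 cpm, with a log2 change of 0.00 on the TMM scale.

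Dusp4 had opposite signs between stages. At E14.5 it went from 348, 328 and 307 cpm at 0 h to 298, 258 and 253 cpm at 2 h, 274, 269 and 262 cpm at 4 h, 261, 257 and 246 cpm at 8 h and 260, 215 and 221 cpm at 12 h, below the 0 h pools throughout. It was the 1 member that fell at 2, 4 and 8 h there, with log2 changes of -0.23, -0.29 and -0.35, where 2.34%, 4.06% and 5.4% of genes fell. With pool as a block Fgfr3 was called higher at 4 h (0.22, adjusted p = 0.0182), where 14.6% of genes rose. By 12 h the change of Dusp4 was -0.49 (SE 0.0651, adjusted p = 9.06e-07). At E16.5 Dusp4 fell from 372, 315 and 350 cpm to 254, 240 and 265 cpm at 12 h (-0.40, SE 0.065, adjusted p = 2.81e-05). It was the 1 member that fell by 4 h (-0.24, adjusted p = 0.0156, where 3.73% of genes fell), and at 8 h it (-0.21) and Spry2 (-0.24) were the 2 that fell (5.65% of genes). No member was called at 2 h at E16.5 by edgeR, with 1 at an unadjusted p under 0.05. With pool as a block Fgfr2 was called there (0.32) and at 2 h at E14.5 (0.38), where 9.71% and 11.6% of genes were called, and at 8 h 3 members were called at E14.5 and 4 at E16.5, where 23.4% and 25.8% of genes were. At E11.5, Dusp4 was the 1 member that rose by 8 h (0.18, adjusted p = 0.0483, where 12.2% of genes rose), at 573, 553 and 588 cpm. At 12 h it was at 538, 512 and 450.5 cpm, which overlaps the 0 h values of 517, 487 and 528 cpm, although the fitted log2 change, on the TMM scale, was 0.19 (SE 0.0649, adjusted p = 0.0276).

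The rises at E11.5 depended on the scaling between libraries. Etv5 likewise overlapped in cpm between 0 h (363, 335 and 358 cpm) and 12 h (366, 358 and 326 cpm) with a fitted change of 0.21 (SE 0.0486, adjusted p = 0.00139). One transcript, Gm42418, took 3.38% to 8.16% of reads in the E11.5 12 h libraries and 0.163% to 2.29% in the others, and TMM factors there were 0.934 to 1.00 against 1.05 to 1.06 at 0 h. With library totals in place of TMM, an alternative chosen after seeing the data, Dusp4 (0.06, adjusted p = 0.516) and Etv5 (0.08, adjusted p = 0.233) were no longer called, Spry2 was (-0.29, adjusted p = 0.00305), and the 5 members called were all lower. The same change turned the split over all genes from 2882 higher and 1622 lower to 1521 and 3305, and the median of all genes from 0.03 to -0.09. The 8 h rise of Dusp4 was not called either (0.16, adjusted p = 0.0925). The falls of Fgfr2, Fgfr3, Spry1 and Dusp6 at 12 h and the early rise of Spry4 (0.35 at 2 h and 0.32 at 4 h) were called under both scalings. At E16.5 the split at 12 h went from 2065 higher and 1381 lower to 1211 and 2040, and Spry4 (-0.22) joined the calls. Etv5 joined them at 12 h at E14.5 (-0.14, adjusted p = 0.0405) and at 8 h at E16.5 (-0.16, adjusted p = 0.0298). Fgfr2 joined them at 8 h at E11.5 (-0.35, adjusted p = 0.0459). The splits moved likewise at 2 h at E11.5 (from 330 higher and 217 lower to 221 and 263), at 2 h at E14.5 (from 289 and 387 to 212 and 594), and at 4 h (from 972 and 618 to 501 and 972) and 8 h at E16.5 (from 1415 and 935 to 797 and 1437). The calls of Dusp4 and Spry2 at those times held under both scalings.

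At the later stages Etv5 fell little. At E16.5 it went from 240, 236 and 237 cpm to 199, 207 and 207 cpm at 12 h (-0.15, SE 0.0486, adjusted p = 0.0228). Spry2 went from 138, 130 and 140 cpm to 106, 107 and 110 cpm at that stage (-0.28, SE 0.0753, adjusted p = 0.007). Fgfr3 at E14.5 had 97.5, 158 and 121 cpm at 0 h and 76.4, 102 and 83.9 cpm at 12 h. The ranges overlap, but each pool fell, with log2 cpm changes of -0.35, -0.63 and -0.52 in pools A, B and C. The edgeR log2 change was -0.54 (SE 0.175, adjusted p = 0.0244), and with pool as a block -0.52 (SE 0.0703, adjusted p = 4.6e-07). Without the block, calls at both stages rested on few libraries. Dusp4 alone was then called without pool B or without pool C at E14.5, and without pool A or without pool C at E16.5. With all pools and pool as a block, 5 and 6 members were called at 12 h, where 34.1% and 33.2% of genes were.

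Whether the 12 h change itself differed between stages was tested as an interaction. Dusp4 and Etv5 were called for E14.5 against E11.5, with differences in log2 change of -0.68 (SE 0.0919, adjusted p = 4.99e-06) and -0.33 (SE 0.0687, adjusted p = 0.00153), where 6.07% of genes were called. They were also called for E16.5 against E11.5, at -0.58 (SE 0.0919, adjusted p = 3.89e-05) and -0.36 (SE 0.0687, adjusted p = 5.95e-04), where 8.9% of genes were. Both comparisons use the E11.5 libraries. For E16.5 against E14.5 edgeR called 0 members, with 1 at an unadjusted p under 0.05, and 0.906% of genes. With pool as a block 5, 6 and 1 members were called, where 14.2%, 19.3% and 6.33% of genes were, and those added (Fgfr2, Spry1 and Dusp6 in the first comparison, these and Fgfr3 in the second, and Fgfr3 in the third) had higher 12 h changes at the later stage, by 0.20 to 0.68. Under library totals Dusp4 kept its calls (-0.56 and -0.53), and Etv5 lost the first (-0.22, adjusted p = 0.0527) and kept the second (-0.30). The splits over all genes moved from 226 higher and 779 lower to 592 and 447 in the first comparison, and from 575 and 899 to 882 and 666 in the second.

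Other genes of the pathway were counted from lists. Of 11 FGF ligands 6 passed the count filter at 0 h, with stage means of at most 10.5 cpm. Between E11.5 and E16.5, 4 of them rose and 1 fell, where 31.4% of all genes rose and 33.1% fell. Fgf15 fell from 7.86, 9.47 and 14.3 cpm to 0.0381, 0.0237 and 0.0801 cpm, close to single reads, and Fgf10 rose from 0.235, 0.0962 and 0.192 cpm to 7.91, 7.28 and 7.02 cpm (log2 change 5.51). Fgf2, the ligand supplied in the medium, was at or below 0.192 cpm in all 0 h libraries. Of 11 other receptors and co-receptors tested, 4 rose and 6 fell over the same interval, against the same shares of all genes. Flrt2 (3.27), Sdc3 (2.66) and Gpc4 (-2.05) changed most on the log2 scale. Fgfrl1, an FGF receptor-like protein without a kinase domain, rose over the 12 h chase at each stage (0.76, 1.10 and 0.95), unlike Fgfr1, Fgfr2 and Fgfr3.

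Among 22 transduction genes 13 rose and 6 fell from E11.5 to E16.5, where 31.4% and 33.1% of all genes did. The adaptor gene Shc1 fell by 1.81 on the log2 scale, Map2k1, which encodes the kinase MEK1, fell by 1.43, and Frs3, an FGF receptor adaptor, rose by 1.44. Of 17 other feedback genes 4 rose and 10 fell, led by Dusp9 (-4.84), Lgals1 (-2.05) and Dusp10 (-1.67), where 31.4% of all genes rose and 33.1% fell. Of 15 other targets 5 rose and 6 fell, with Il1rap (-2.48), Elk3 (-2.34) and Egr1 (2.11) changed most. Over the chase at E11.5, 7 of these targets fell and 2 rose, Egr1 by the most (-2.05), and 5 of the other feedback genes rose and 2 fell. Over all genes 17.4% rose and 9.8% fell there, a split that turned to 9.19% and 20.0% under library totals.

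Most other feedback genes and targets also had half-lives below the stage median, at 10, 10 and 10 of the measured feedback genes. Their medians at the 3 stages were 3.27, 2.89 and 2.01 h over 14, 12 and 14 measured feedback genes and 2.42, 2.31 and 1.94 h over 14 targets, of which 14, 13 and 13 lay below it. Transduction genes had medians of 4.12, 4.37 and 3.20 h and co-receptors 3.88, 3.18 and 3.38 h, nearer to the stage medians. The shortest in these lists were Egr1 at E11.5 (1.85 h), Dusp10 at E14.5 (1.92 h) and Flrt3 at E16.5 (1.14 h), and the longest were Lgals1 (16.3 h at both E11.5 and E16.5) and Map2k2 (7.21 h at E14.5). The shortest members were Spry2 at E11.5 (1.69 h), Spry1 at E14.5 (1.78 h) and Dusp6 at E16.5 (1.18 h).

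The mean level of the 7 feedback targets (the inhibitors with Etv4 and Etv5), centred on each pool, was set against 11506 genes over the 45 libraries. The most similar genes were Crtc1 (Pearson's r = 0.919), Trappc5 (0.918), Mir9-3hg (0.911), Wdr18 (0.908), Tbrg4 (0.908), Srebf2 (0.906), Hgh1 (0.897), Wdr74 (0.896), Wdr4 (0.895) and Pigm (0.895). For the 7 targets themselves r ranged from 0.532 for Dusp4 to 0.889 for Spry2. Each of them is part of the mean it was set against, so these r are not comparable with those of the genes above. The libraries share their chase times and scaling, so these values describe likeness over time in culture and carry no test.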

How the data were processed

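The authors aligned reads with SlamDunk to mm10 and added up each gene's exons, from a later GENCODE release than the one used here for coordinates. Aligner settings and the handling of multiply aligned reads are not given in the sources used here. They deposited covered Ts as raw counts, in which each T position under a read counts once, so that a read adds many counts. Conversion rates, deposited as the fraction of covered Ts read as C, are printed in percent. Levels were deposited as cpm, from which whole reads could be recovered for 100% of values (tolerance 0.01 reads). The authors' mean coverage on Ts per table, deposited beside these, was not used in any test. The columns named 45 libraries and left 0 unmatched.

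Levels were compared with the quasi-likelihood test of edgeR 4.0.16 (R 4.3.3) on covered-T counts with TMM factors, for genes with more than 10 counts in every library, using 9 libraries at 0 h and all 45 for chase times and their interactions. Calls are at a Benjamini-Hochberg adjusted p under 0.05. Counting covered Ts does not add independent molecules, and the spread was estimated between pools. Half-lives came from exp(-kx) fitted to rates scaled to 0 h, kept where covered Ts exceeded 500 at all times, the half-life lay under 24 h and R2 exceeded 0.6 in all 3 pools. Of 109733 refits 109729 lay within 1% of the half-lives the authors deposited. Half-lives and rates were tested with limma 3.58.1. The edgeR, half-life and limma steps were tested on simulated data. Counts per kb used GENCODE release 21 exons.

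The labels give each well a replicate letter, and by the authors' methods the wells of one replicate come from one pool of cells. Their deviations correlated at medians above those with other pools (lowest within-pool value 0.0667). Across stages a letter pairs nothing, since the embryos differ. The alternatives were DESeq2 1.42.0, its size factors, recovered reads, library totals, count filters, blocks, left-out pools and other decay fits.

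The 10 members and all gene lists were chosen with earlier results of these data known. Named beside the members are, per list, the 3 called genes with the largest change or the extreme half-lives (only some of the comparisons are spelled out), and the 10 genes most like the mean of the feedback targets. Ligands given in cpm per pool and Fgfrl1 over the chase were picked from these. Spry3 is not analysed here.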

Additional observations from a re-analysis of the deposited data

Results flagged for a closer look

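The 12 h against 0 h change of Dusp4 differed between stages in the interaction test of edgeR, by -0.68 on the log2 scale for E14.5 minus E11.5 and by -0.58 for E16.5 minus E11.5. That of Etv5 differed by -0.33 and by -0.36 in the same comparisons. Both genes had a positive fitted change at E11.5 and a negative one later, and the E11.5 libraries are common to the 2 comparisons. The share of reads taken by Gm42418 and the scaling factors moved with the E11.5 12 h group. With library totals in place of TMM factors the Dusp4 differences were -0.56 and -0.53, both called. The Etv5 differences were then -0.22, no longer called, and -0.30, called. What part scaling has in the difference for Etv5 at E14.5 was not tested beyond this.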

How the results depend on the processing

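Counts of members called at 0 h stayed within 1.5 times under every alternative run. Leaving out 1 pool at a time gave 7 to 7, 6 to 7 and 9 to 9 called members for E14.5 against E11.5, E16.5 against E14.5 and E16.5 against E11.5. For 12 h against 0 h it gave 1 to 6 at E11.5, 1 to 2 at E14.5 and 1 to 4 at E16.5. For the interactions it gave 2 to 2 (E14.5 minus E11.5), 2 to 4 (E16.5 minus E11.5, with Fgfr3 and Spry1 added without E14.5 pool B) and 0 to 0 (E16.5 minus E14.5). The relative conversion rate gave 2 to 5 calls and the relative half-life 0 to 0. With pool as a block, 5 and 6 members were called at 12 h at E14.5 and E16.5, and 5, 6 and 1 in the interactions in the order above. At 8 h the pool block moved the counts from 3, 1 and 2 to 6, 3 and 4 at the 3 stages. It added 1 call at 2 h in each stage and 1 at 4 h in E14.5. For the conversion rate the block was the replicate letter, which pairs nothing across stages, and 3 members were called (Fgfr3, Spry1 and Etv4). Library totals left 1 call (Dusp4) in the interaction of E14.5 with E11.5. Half-lives in hours gave 2 calls and centred log2 half-lives gave 1.

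Median half-lives of inhibitors minus receptors ranged from -1.41 to -1.23 h at E11.5, -1.63 to -1.08 h at E14.5 and -1.57 to -1.08 h at E16.5 when 1 pool was left out. Without the 0 h point they reversed to 5.78, 2.85 and 2.50 h, and with the mean in place of the median the E11.5 value was -0.475 h. Over all transcripts the number called for half-life was 299, and 2296 with unscaled hours, 547 with R2 above 0.8 and 3 to 28 without 1 of the E16.5 pools. It was 0 with the replicate letter as a block, which pairs nothing across stages. Without centring, 10226 genes rather than 2169 differed in conversion rate. Of the single-member values under alternatives 1388 kept their side of the threshold, 24 lost and 28 gained it, and none of the called ones changed sign.

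Precision is limited by 3 pools per stage. Low levels of Fgfr2, Fgfr3 and Spry1 at the later stages left at least 5199 covered Ts per rate at 0 h. Rates near the residue at 8 and 12 h carry little decay information for genes with half-lives under 2 h, and no unlabelled library was used here.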
